A study of Homo sapiens with 29 samples.

Results

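The 10 genes described here code for the acetylcholine receptor of skeletal muscle and for proteins that gather it or clear its ligand at the neuromuscular synapse. They are the receptor subunits CHRNA1 (alpha), CHRNB1 (beta), CHRND (delta), CHRNE (epsilon) and CHRNG (gamma), the receptor-clustering factors MUSK, LRP4, DOK7 and RAPSN, and the acetylcholinesterase ACHE. The genes were chosen by name, and their probes were found through the RefSeq accession that the array gives for each probe. Of 22439 genes named in this way, 18398 had a tested probe, meaning a probe well above background on at least 2 of 29 arrays. All 10 genes were among these, with 12 tested probes in all. Where a gene had 2 tested probes, CHRNA1 and DOK7, the brighter is used and the dimmer is given beside it in some comparisons.

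The acetylcholine receptor of muscle is a channel of 5 subunits. In fetal and in denervated muscle it holds the gamma subunit, and at the innervated adult synapse the epsilon subunit takes the place of gamma. The nerve releases agrin, agrin binds LRP4, and LRP4 activates the receptor tyrosine kinase MUSK with the help of the adaptor DOK7. RAPSN, which codes for rapsyn, then anchors receptors beneath the nerve ending, and acetylcholinesterase in the synaptic cleft breaks down the transmitter. Myogenic transcription factors switch on receptor genes as myoblasts fuse.

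LHCN-M2 cells are human myoblasts, immortalized with telomerase and CDK4 and derived from a selected clone. The cultures were transfected with 20 nM siRNA, either against the transcription factor ZNF148 or nontargeting. Of the 10 groups, 6 were kept in growth media, with each siRNA, and harvested at 24 h (subconfluent), 48 h or 96 h (both confluent). The other 4 were moved to differentiation media 2 days after transfection and harvested at 48 h or 96 h. The 96 h nontargeting group in growth media had 2 arrays and every other group 3, and since no label says that these came from separate cultures, p-values measure only the spread between these samples. Growth-media hours run from transfection but differentiation-media hours from the later media switch, so that media and time since transfection cannot be told apart at a given hour. Only muscle cells were cultured, so no nerve contributed to these values. In bulk RNA, fewer cells of a type and less RNA per cell cannot be told apart.

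Values are log2 signals after quantile normalization over all arrays, and a gene is called changed at a limma adjusted p under 0.05 together with a change of more than 2-fold. The ZNF148 signal fell by 1.53 to 2.74 on the log2 scale in the 5 knockdown comparisons, which checks the labels. The myoblast markers MYF5, MYOD1, CDH15 and DES were well above background on every array, and PAX7 only on some. The summed signal of 6 myotube markers lay between 7.42 and 7.98 (log2) on the 24 h arrays and between 20.07 and 20.48 on the later ZNF148 siRNA arrays. It was 14.14 and 14.20 with nontargeting siRNA at 96 h in growth media, and 17.98 to 18.19 at 96 h in differentiation media. Of the nontargeting arrays at 48 h in growth media, replicate 1 stood apart, with a summed signal of 19.07 where the lowest of the group was 11.25, so results that use this group are also given without it. The summed signal of 5 fibroblast markers, of which TCF21 was not well above background on most arrays, was lower with ZNF148 siRNA, for example 14.39 to 14.63 against 17.04 to 17.23 at 96 h in growth media. Of 5 motor neuron markers, CHAT and SLC18A3 were above background on every array and SLC5A7 and ISL1 on none. None of the 3 Schwann cell markers with a probe was above background on every array of any group. The part of the markers that moved in the results below was not tested. All 24 h arrays were on 1 slide and the others on 3 slides read in another scan, so levels at 24 h and later cannot be told apart from the slide.

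RefSeq (GRCh38.p14) start regions were at hand for CHRNA1, CHRNB1, CHRND, CHRNE, MUSK, DOK7 and ACHE, 10 regions in all. Those of 4 receptor subunits are printed here because CHRNA1, CHRNB1 and CHRND were called in some comparison below and CHRNE in none. Each line holds the 250 bases before the start, read 5′ to 3′ on the gene's strand. Capitals mark the E-box CANNTG, the core letters that myogenic factors such as MYOD and myogenin bind, and the N-box CCGGAA, which ETS factors bind in synaptic genes, each read on either strand. The regions are CHRNA1 at chr2:174764473-174764722 on the minus strand, CHRNB1 at chr17:7444811-7445060 on the plus strand, CHRND at chr2:232525910-232526159 on the plus strand and CHRNE at chr17:4903099-4903348 on the minus strand.
CHRNA1: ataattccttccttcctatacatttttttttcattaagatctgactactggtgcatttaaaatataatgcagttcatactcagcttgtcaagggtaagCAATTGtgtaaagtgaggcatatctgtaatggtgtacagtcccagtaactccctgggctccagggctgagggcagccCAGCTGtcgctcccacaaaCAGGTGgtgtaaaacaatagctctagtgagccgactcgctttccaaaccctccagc
CHRNB1: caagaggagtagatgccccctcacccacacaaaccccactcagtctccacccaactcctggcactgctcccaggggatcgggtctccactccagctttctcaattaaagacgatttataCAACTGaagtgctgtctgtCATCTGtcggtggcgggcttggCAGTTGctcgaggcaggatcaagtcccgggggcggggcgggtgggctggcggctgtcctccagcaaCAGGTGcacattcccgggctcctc
CHRND: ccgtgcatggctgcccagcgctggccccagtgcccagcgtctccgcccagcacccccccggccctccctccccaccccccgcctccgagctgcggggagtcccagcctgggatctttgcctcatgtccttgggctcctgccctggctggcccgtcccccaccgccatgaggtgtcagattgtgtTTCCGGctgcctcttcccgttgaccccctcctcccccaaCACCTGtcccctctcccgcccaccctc
CHRNE: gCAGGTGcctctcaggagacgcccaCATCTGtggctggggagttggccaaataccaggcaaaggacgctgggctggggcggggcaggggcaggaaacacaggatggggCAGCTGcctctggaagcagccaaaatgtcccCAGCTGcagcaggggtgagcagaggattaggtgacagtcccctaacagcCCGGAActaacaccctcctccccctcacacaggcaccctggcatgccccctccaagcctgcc

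Both strands were searched, and no E-box overlapped an N-box in the 10 regions. At least 1 E-box was present in 7 of the 10 regions, where 61.8% of 35116 start regions of the same length hold one. The E-box form CAGCTG was present before CHRNA1, CHRNE and MUSK (14% of all regions), and the form CACCTG before the 4 printed genes (17.5% of all regions). The N-box was present before CHRND and CHRNE, with its first base at -66 and -62 from the start (14.5% of all regions). The 2 E-boxes of CHRNA1 nearest to the start begin at -75 and -56. CHRNE has 4 E-boxes in this window and CHRND, which rose most among the printed genes at 48 h in growth media, has 1. These are matches of letters, not measured binding sites.

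**Figure D1:**
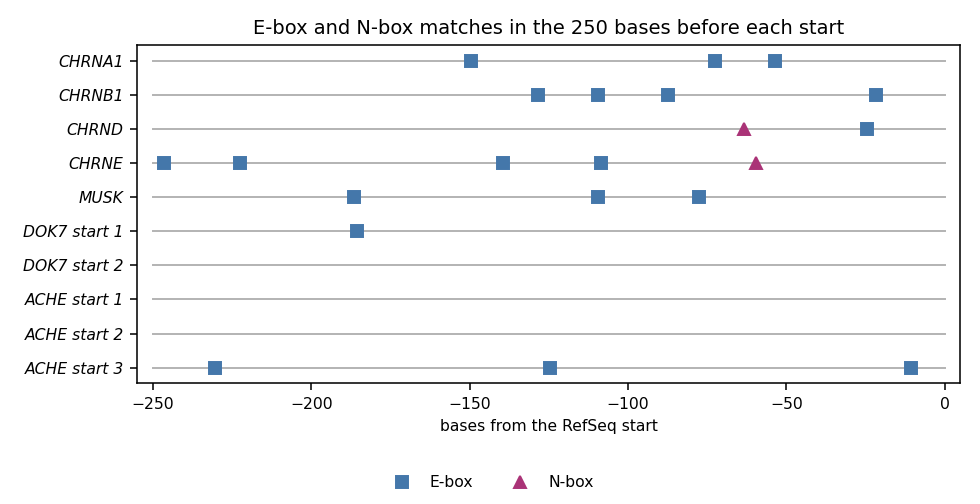
Positions of E-boxes (squares) and N-boxes (triangles) in the 250 bases before each RefSeq start of 7 of the genes, with the distance from the start in bases on the x axis and 1 line per start. CHRNA1, CHRNB1 and CHRNE hold 3, 4 and 4 E-boxes, and the N-boxes of CHRND and CHRNE lie at nearly the same distance from the start.

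At 24 h in growth media none of the 10 genes had a measurable change of more than 2-fold. CHRNG was called (adjusted p = 0.0212), but it was not well above background on any of the 6 arrays and is given no fold. Of all genes tested, 2.46% were called higher at this time. The call on CHRNG was lost with normexp background correction (adjusted p = 0.343). It was also lost without nontargeting replicate 1 or 3 or ZNF148 siRNA replicate 1 or 3 (adjusted p from 0.0600 to 0.0745). The call was kept in the limma fit without the array that stands apart (adjusted p = 2.84e-07). That array is not among the 6 arrays compared here, on which CHRNG was not well above background. CHRNA1, the subunit that carries most of the ligand-binding site, was lower by 1.40-fold (log2 change -0.48, SE 0.11, adjusted p = 0.00234), with 12.84, 12.85 and 12.90 in the nontargeting arrays and 12.35, 12.41 and 12.38 in the ZNF148 siRNA arrays. The groups did not overlap for CHRNA1, but the change was under the fold threshold. The other 8 genes had log2 changes from -0.71 (DOK7) to 0.83 (CHRNB1) with adjusted p from 0.157 to 1.00. These p-values use the spread over all groups. In the limma fit without the array that stands apart, CHRNB1 (0.83, adjusted p = 0.00151) and CHRND (0.45, adjusted p = 0.0100) passed the adjusted p as higher. RAPSN (-0.35, adjusted p = 0.00484) and DOK7 (-0.71, adjusted p = 0.0296) passed as lower. These changes stayed under 2-fold, and CHRNE, MUSK, LRP4 and ACHE did not pass. CHRND was well above background on only 2 nontargeting arrays and 1 ZNF148 siRNA array. The median log2 change of the 10 genes was 0.12, or 0.05 with CHRNG set to 0, and that of all genes was near 0 (-0.00074).

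At 48 h in growth media 7 of the 10 genes rose with ZNF148 siRNA, where 11.7% of all genes were called higher. These were CHRNB1, CHRND, CHRNG, LRP4, DOK7, RAPSN and ACHE. At 96 h in growth media 7 of 10 were again called higher, against 12.3% of all genes, and they were the same 7 genes. The median log2 change of the 10 genes was 2.51 at 48 h and 2.29 at 96 h, where the medians over all genes were -0.05 and -0.03. At 48 h, 9 genes had every ZNF148 siRNA array above, and 1 every array below, the nontargeting arrays, where 29.4% and 33.4% of all genes did so. At both times the summed myotube markers were higher with ZNF148 siRNA and the summed fibroblast markers lower. Of the fibroblast markers, DCN and THY1 were lower at both times, while group means of LUM (11.16 against 11.11 at 48 h, 11.54 against 11.64 at 96 h) and PDGFRA (8.56 against 8.88, 8.74 against 8.61) went either way.

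**Figure D2:**
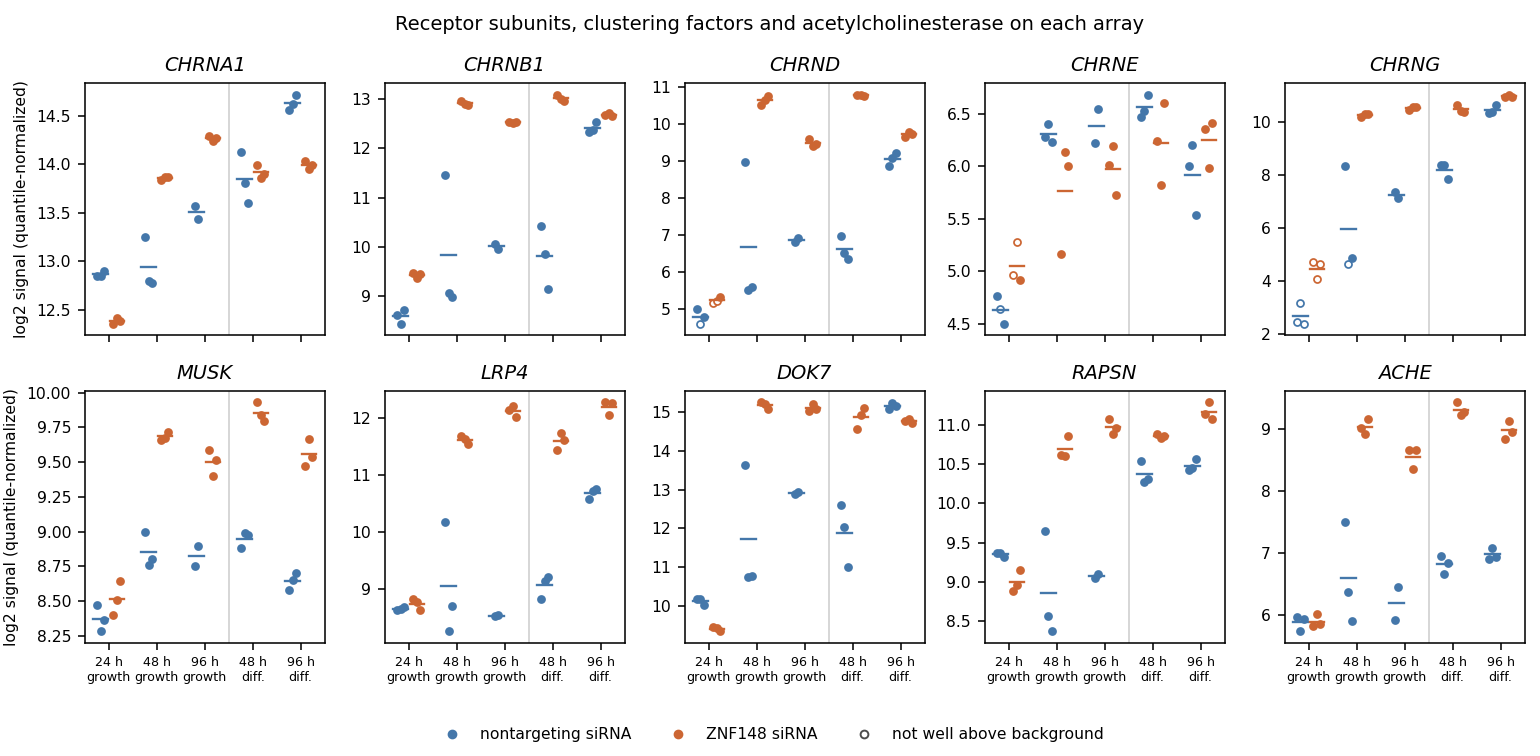
Log2 signal of each gene on every array (points) with the group mean (line), for nontargeting and ZNF148 siRNA at each time in growth media and in differentiation media (diff.), open where the probe was not well above background. The y axes differ between panels. In 7 panels the ZNF148 siRNA means at 48 and 96 h in growth media lie more than 2-fold above the nontargeting means, and the nontargeting array that stands apart at 48 h is the highest blue point of its group in every panel except CHRNE.

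Among the receptor subunits that both the fetal and the adult channel hold, CHRND, which forms part of a ligand-binding site, rose most. With nontargeting siRNA at 48 h in growth media its log2 signal was 8.96, 5.50 and 5.57, and with ZNF148 siRNA it was 10.51, 10.65 and 10.75. Every ZNF148 siRNA array was thus higher than every nontargeting array, and the nontargeting value of 8.96 came from the array that stands apart. The log2 change was 3.96 (SE 0.52, 15.6-fold, adjusted p = 1.53e-06), and 5.10 (SE 0.14) without that array. At 96 h CHRND was 6.80 and 6.90 against 9.58, 9.39 and 9.45, a log2 change of 2.63 (SE 0.58, 6.17-fold, adjusted p = 0.000749).

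CHRNB1, the subunit through which rapsyn is held to the receptor, read 11.47, 9.06 and 8.99 with nontargeting siRNA at 48 h in growth media and 12.97, 12.91 and 12.88 with ZNF148 siRNA. The groups did not overlap. It rose by 3.08 on the log2 scale (SE 0.40, 8.45-fold, adjusted p = 1.42e-06), and by 3.89 (SE 0.20) without the array that stands apart. At 96 h it was 10.06 and 9.97 against 12.54, 12.52 and 12.52, a log2 change of 2.52 (SE 0.45, adjusted p = 7.77e-05). CHRNB1 and CHRND had the most similar pattern of any 2 of the subunits over the 10 group means (Pearson r = 0.98, 10 groups that share a normalization).

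CHRNA1 was bright in every group and moved less. Its log2 signal was 13.25, 12.79 and 12.77 with nontargeting siRNA at 48 h in growth media and 13.84, 13.88 and 13.87 with ZNF148 siRNA, and 13.57 and 13.44 against 14.30, 14.25 and 14.28 at 96 h. The arrays did not overlap at either time. The log2 changes of 0.92 (SE 0.11, adjusted p = 4.08e-07) and 0.77 (SE 0.12, adjusted p = 2.12e-05) stayed under the fold threshold. Without the array that stands apart the change at 48 h was 1.08 and passed it, and the other CHRNA1 probe gave 1.01 at 48 h and 0.79 at 96 h. Over the 10 groups the means ranged from 12.38 ± 0.029 (SD, n = 3) with ZNF148 siRNA at 24 h to 14.64 ± 0.081 (SD, n = 3) with nontargeting siRNA at 96 h in differentiation media.

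CHRNG codes for the fetal gamma subunit. With nontargeting siRNA in growth media CHRNG read 2.45, 3.17 and 2.40 at 24 h, none of them well above background, then 8.33, 4.65 and 4.88 at 48 h, and 7.36 and 7.14 at 96 h. With ZNF148 siRNA in growth media it read 4.72, 4.07 and 4.63 at 24 h, also not well above background, then 10.18, 10.27 and 10.30 at 48 h and 10.42, 10.57 and 10.56 at 96 h. All ZNF148 siRNA arrays at 48 and 96 h thus lay above every nontargeting array in growth media. The log2 change was 4.30 at 48 h (SE 0.56, 19.7-fold, adjusted p = 1.26e-06), and 5.49 (SE 0.21) without the array that stands apart, of the 3 nontargeting arrays 2 being above background. It was 3.27 at 96 h (SE 0.62, 9.66-fold, adjusted p = 0.000158).

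The adult epsilon subunit gene CHRNE changed little with ZNF148 siRNA, while its means over the 10 groups spanned 1.92 log2 units, the lowest being at 24 h. In growth media it read 6.27, 6.41 and 6.23 in the nontargeting arrays against 5.17, 6.13 and 6.00 after ZNF148 siRNA at 48 h, and 6.22 and 6.54 against 6.01, 6.19 and 5.72 at 96 h. At both times each ZNF148 siRNA array was below each nontargeting array, with log2 changes of -0.54 (SE 0.23, adjusted p = 0.0598) and -0.41 (SE 0.25, adjusted p = 0.218). In differentiation media it read 6.47, 6.53 and 6.68 against 6.24, 5.82 and 6.60 at 48 h, and 6.00, 6.20 and 5.54 against 6.35, 5.98 and 6.41 at 96 h, and the groups overlapped at both times. CHRNE was not called in any of the 9 comparisons between 2 groups. Its 95% confidence intervals in the 5 knockdown comparisons ran from -1.01 to 0.89 on the log2 scale, so that a rise of more than 2-fold lay outside each of them. At 24 h it was lower, at 4.77, 4.64 and 4.50 with nontargeting siRNA and 4.97, 5.28 and 4.92 with ZNF148 siRNA, and above background on 2 and 1 of 3 arrays.

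Signals of 2 probes cannot be compared as levels, but the difference between them can be followed from array to array. CHRNE minus CHRNG was 1.96 ± 0.44 (log2, SD, n = 3) with nontargeting siRNA at 24 h, 0.35 ± 2.09 (n = 3) at 48 h and -0.87 ± 0.39 (n = 2) at 96 h in growth media. With ZNF148 siRNA it was 0.58 ± 0.55 at 24 h, -4.48 ± 0.46 at 48 h and -4.55 ± 0.26 at 96 h (n = 3 each). In differentiation media nontargeting arrays had -1.63 ± 0.40 at 48 h and -4.53 ± 0.49 at 96 h, and ZNF148 siRNA arrays -4.25 ± 0.42 and -4.70 ± 0.29 (n = 3 each). The difference thus lay furthest toward the fetal subunit gene in each later ZNF148 siRNA group and in nontargeting cells at 96 h in differentiation media. It lay less far that way in nontargeting cells at 48 h in differentiation media and at 96 h in growth media. At 48 h in growth media the nontargeting array that stands apart was at -2.05, and the others were at 1.76 and 1.35. The gamma signal was not well above background on any 24 h array, so the 24 h differences are not those of 2 detected genes.

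**Figure D3:**
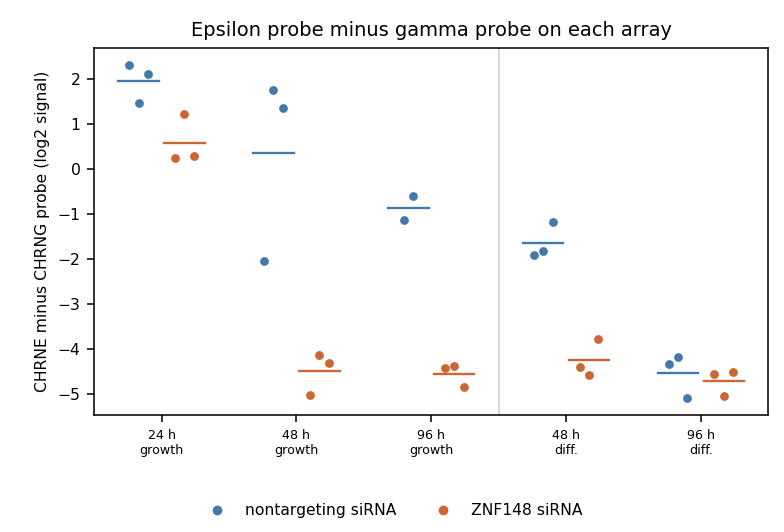
Log2 signal of the CHRNE probe minus that of the CHRNG probe on each array (points) with the group mean (line), by siRNA, time and media (diff., differentiation media). The zero of this scale has no meaning, since 2 probes differ in brightness, and only changes along it can be read. The ZNF148 siRNA arrays at 48 and 96 h and the nontargeting arrays at 96 h in differentiation media lie between -5.09 and -3.77.

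The 4 clustering factors did not move alike. LRP4, the muscle receptor for agrin, read 10.17, 8.25 and 8.69 with nontargeting siRNA at 48 h in growth media and 11.69, 11.63 and 11.55 with ZNF148 siRNA, a log2 change of 2.59 (SE 0.28, 6.00-fold, adjusted p = 8.63e-08), and 3.15 without the array that stands apart. At 96 h it read 8.51 and 8.52 against 12.14, 12.21 and 12.02. This was the highest of the 10 changes at 96 h in growth media, 3.61 on the log2 scale (SE 0.31, 12.2-fold, adjusted p = 3.79e-09).

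DOK7, the adaptor that binds MUSK from inside the cell, read 13.64, 10.73 and 10.77 against 15.27, 15.22 and 15.10 at 48 h in growth media, and 12.89 and 12.93 against 15.04, 15.22 and 15.10 at 96 h. The groups did not overlap. It rose by 3.48 (SE 0.49, 11.2-fold, adjusted p = 3.35e-06), or 4.45 without the array that stands apart, and by 2.21 (SE 0.54, adjusted p = 0.00194) on the log2 scale. A dimmer probe of DOK7 rose by 1.65 and 1.61.

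RAPSN read 9.64, 8.56 and 8.37 against 10.62, 10.60 and 10.85 at 48 h in growth media, and 9.05 and 9.10 against 11.08, 10.88 and 10.96 at 96 h. It rose by 1.83 (SE 0.20, adjusted p = 8.63e-08), or 2.23 without the array that stands apart, and by 1.90 (SE 0.22, adjusted p = 2.74e-07) on the log2 scale. MUSK, the kinase at the centre of this pathway, read 8.995, 8.76 and 8.80 against 9.66, 9.68 and 9.72 at 48 h and 8.75 and 8.90 against 9.59, 9.40 and 9.51 at 96 h. Its groups did not overlap, and its log2 changes of 0.83 (SE 0.080, adjusted p = 1.94e-08) and 0.68 (SE 0.089, adjusted p = 1.72e-06) passed the adjusted p but not the fold threshold. The means of MUSK over the 10 groups differed by at most 1.48 log2 units, the narrowest span of the 10 genes.

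ACHE, whose product ends each signal by splitting acetylcholine, read 7.49, 6.37 and 5.90 with nontargeting siRNA at 48 h in growth media and 9.01, 8.92 and 9.17 with ZNF148 siRNA. At 96 h it read 5.92 and 6.45 against 8.66, 8.36 and 8.66. No array of one siRNA overlapped the other at either time. ACHE rose by 2.44 (SE 0.24, 5.44-fold, adjusted p = 3.17e-08), or 2.90 without the array that stands apart, and by 2.37 (SE 0.27, 5.19-fold, adjusted p = 2.49e-07) on the log2 scale.

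**Figure D4:**
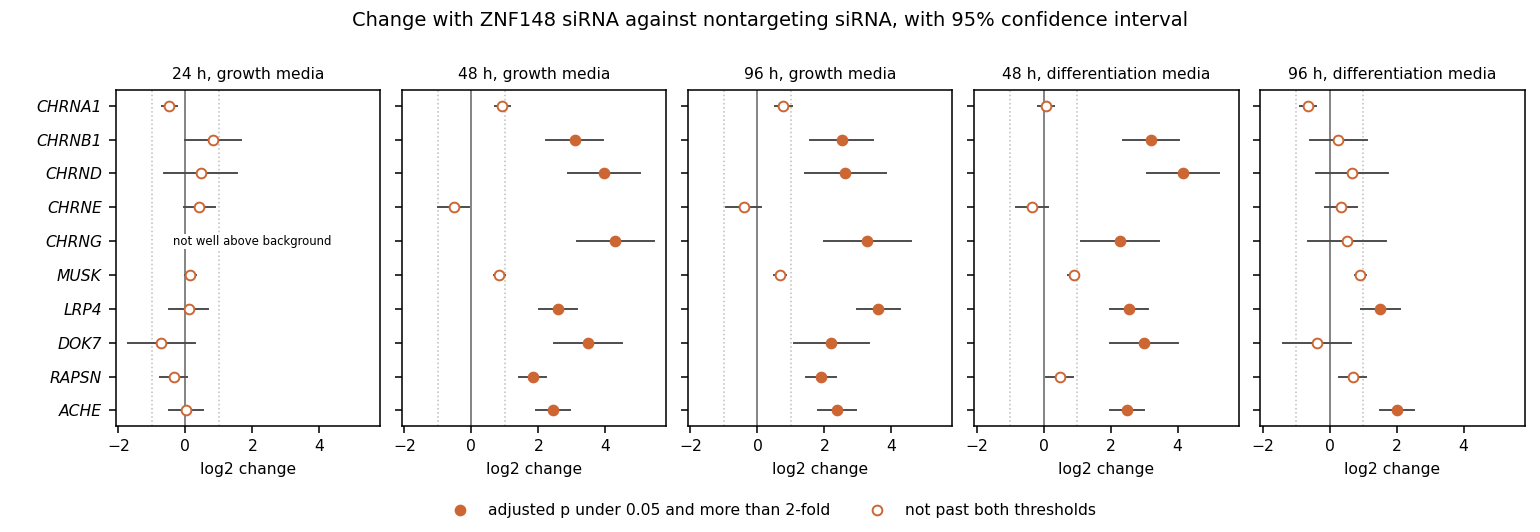
Log2 change of each gene with ZNF148 siRNA against nontargeting siRNA in the 5 knockdown comparisons, with 95% confidence intervals (horizontal lines), filled where the adjusted p was under 0.05 and the change more than 2-fold. Dotted lines mark a 2-fold change, and CHRNG at 24 h has no value because no array was well above background. Of the 10 genes 7, 7, 6 and 2 are filled in the 4 later comparisons, and CHRNE is open in all 5.

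In differentiation media 6 of the 10 genes rose with ZNF148 siRNA at 48 h, CHRNB1, CHRND, CHRNG, LRP4, DOK7 and ACHE, where 15.1% of all genes were called higher. CHRND read 6.97, 6.51 and 6.33 against 10.77, 10.79 and 10.75, the largest change of the 10 genes in these media (log2 change 4.17, SE 0.52, 18.0-fold, adjusted p = 4.78e-07). CHRNB1 read 10.43, 9.85 and 9.14 against 13.09, 13.00 and 12.95 (log2 change 3.21, SE 0.40, adjusted p = 5.04e-07), and ACHE 6.95, 6.66 and 6.83 against 9.44, 9.23 and 9.28 (log2 change 2.50, SE 0.24, adjusted p = 1.03e-08). The 3 nontargeting arrays at 48 h in these media also differed among themselves, replicate 1 being the highest for CHRNA1, CHRNB1, CHRND and DOK7, and their summed myotube markers ran from 13.66 to 15.67. CHRNG rose by 2.28 (SE 0.56, adjusted p = 0.00139), DOK7 by 2.99 (SE 0.49, adjusted p = 1.65e-05) and LRP4 by 2.55 (SE 0.28, adjusted p = 5.60e-08) on the log2 scale. CHRNA1 had a log2 change of 0.07 with a confidence interval from -0.16 to 0.30, and RAPSN one of 0.49 (SE 0.20, adjusted p = 0.0416).

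At 96 h in differentiation media the siRNA groups were closer. LRP4 and ACHE were called higher, 2 of 10 genes, where 10.5% of all genes were called higher. LRP4 read 10.58, 10.72 and 10.76 against 12.29, 12.06 and 12.27 (log2 change 1.52, SE 0.28, 2.86-fold, adjusted p = 8.57e-05), and ACHE 6.90, 7.08 and 6.94 against 8.84, 9.13 and 8.96 (log2 change 2.00, SE 0.24, 4.01-fold, adjusted p = 4.59e-07). MUSK was again higher by less than 2-fold, at 8.58, 8.65 and 8.70 against 9.47, 9.67 and 9.54 (log2 change 0.92, SE 0.080, adjusted p = 3.63e-09). CHRNA1 was lower with ZNF148 siRNA by 1.56-fold, at 14.03, 13.96 and 13.99 against 14.56, 14.63 and 14.72 (log2 change -0.64, SE 0.11, adjusted p = 4.43e-05). For CHRNB1, CHRND, CHRNG and DOK7 the confidence intervals of the log2 change held 0, from -1.38 to 0.64 for DOK7 and from -0.65 to 1.67 for CHRNG. For CHRNB1, CHRND and CHRNG every ZNF148 siRNA array was above every nontargeting array, and for DOK7 every one was below. The arrays of the dimmer DOK7 probe overlapped, with means of 6.48 with ZNF148 siRNA and 6.28 with nontargeting siRNA. Of the 10 genes, 7 lay wholly above and 2 wholly below. The shares of all genes that did so are not given for these groups, so these counts are not read further. At 48 h in growth media those shares were 29.4% and 33.4%. The confidence intervals use the spread over all groups. In the fit without the array that stands apart CHRND (0.67, SE 0.13, adjusted p = 0.000150) and CHRNG (0.51, SE 0.19, adjusted p = 0.0283) passed the adjusted p, still under 2-fold. RAPSN was higher by 0.69 (SE 0.20, adjusted p = 0.00540), also under 2-fold.

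The response to ZNF148 siRNA was therefore compared between the media in the same fit. At 96 h it was lower in differentiation than in growth media for 6 of the 10 genes, CHRNG, DOK7, CHRNB1, LRP4, CHRNA1 and RAPSN, where 6.93% of all genes had a response lower by both thresholds. For CHRNA1 the response differed in sign, with a log2 change of 0.77 in growth media and -0.64 in differentiation media. The differences between the log2 changes ran from -2.76 for CHRNG (adjusted p = 0.0187) to -1.21 for RAPSN (adjusted p = 0.00390). For ACHE the difference was -0.37 with a confidence interval from -1.13 to 0.39, and for MUSK 0.24 with an interval from -0.01 to 0.49. At 48 h RAPSN alone passed both thresholds (-1.35, adjusted p = 0.000555), where 9.07% of all genes were called lower. Without the array that stands apart CHRNA1 (-1.01), CHRNG (-3.21) and DOK7 (-1.46) passed as well, and at 96 h CHRND (-1.96, adjusted p = 1.16e-07), which with all arrays had an adjusted p of 0.0758. That array lies in neither 96 h group and enters there only through the shared estimate of the spread. Between 24 and 96 h in growth media, the response was higher at 96 h for 7 of the 10 genes, LRP4, DOK7, ACHE, RAPSN, CHRND, CHRNB1 and CHRNA1, where 11.6% of all genes were called higher. These differences ran from 3.51 for LRP4 (adjusted p = 7.28e-07) to 1.25 for CHRNA1 (adjusted p = 3.35e-06).

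Between growth and differentiation media at 96 h, a comparison in which media and time since transfection cannot be told apart, 7 of the 10 genes were higher in differentiation media with nontargeting siRNA, where 6.81% of all genes were called higher in differentiation media. CHRNG rose by 3.20 (SE 0.62, adjusted p = 0.000320), CHRNB1 by 2.40 (SE 0.45), DOK7 by 2.25 (SE 0.54), LRP4 by 2.17 (SE 0.31), RAPSN by 1.41 (SE 0.22) and CHRNA1 by 1.13 (SE 0.12) on the log2 scale. CHRND rose by 2.20 (SE 0.58, adjusted p = 0.00498), and with the slide as a block by 1.73 (adjusted p = 0.0544), which did not pass. CHRNA1 was at 0.96 and under the fold threshold when arrays were scaled to their 75th percentile. The dimmer DOK7 probe rose by less than 2-fold, from a mean of 5.31 in growth media to 6.28 in differentiation media. MUSK was at -0.18 (adjusted p = 0.135) and ACHE at 0.79 (adjusted p = 0.0272). At 48 h CHRNG (2.24, adjusted p = 0.00242) and RAPSN (1.52, adjusted p = 1.47e-06) were called, 2 of 10 genes against 7.77% of all genes called higher, and without the array that stands apart 5 genes were called, CHRNA1, CHRND and DOK7 being added. The arrays of CHRNG overlapped between the media at 48 h, and its call was lost when only the arrays of the comparison were fitted (adjusted p = 0.188).

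Between 48 and 96 h in differentiation media with nontargeting siRNA, 5 of the 10 genes rose, where 5.76% of all genes were called higher. CHRNG read 8.37, 8.35 and 7.85 at 48 h and 10.34, 10.37 and 10.63 at 96 h, a log2 change of 2.25 (SE 0.56, adjusted p = 0.00310). DOK7 read 12.62, 12.04 and 10.99 and then 15.08, 15.24 and 15.16, a change of 3.28 (SE 0.49, adjusted p = 1.64e-05). The dimmer DOK7 probe rose less, from a mean of 5.13 at 48 h to 6.28 at 96 h. CHRNB1 rose by 2.61, CHRND by 2.44 and LRP4 by 1.63. MUSK was lower at 96 h by 0.31 (adjusted p = 0.00457) and CHRNE by 0.64 (adjusted p = 0.0325), both under 2-fold.

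ZNF148 siRNA at 96 h in growth media and nontargeting siRNA at 96 h in differentiation media are groups that share no array, and 8 of the 10 genes were not called between them. Most of all genes were not called either, with 1903 of 18398 higher and 1551 lower, so that this count is not particular to the 10 genes. LRP4 (log2 difference 1.44, SE 0.28, adjusted p = 0.000182) and ACHE (1.58, SE 0.24, adjusted p = 1.33e-05) were higher with ZNF148 siRNA in growth media, where 10.3% of all genes were called higher. The intervals for CHRNB1 (-0.72 to 0.95), DOK7 (-1.05 to 0.97) and CHRNG (-1.09 to 1.24) held 0 and are up to 1.24 log2 units wide on a side, so that equal levels are not shown. CHRNA1 was lower by 0.36 (adjusted p = 0.0103) and MUSK higher by 0.86 (adjusted p = 1.35e-08). These groups also differ in time since transfection.

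Ordered by group mean, the 5 highest groups of CHRNG were ZNF148 siRNA at 96 h in differentiation media (10.95 ± 0.058, SD), at 96 h in growth media (10.52 ± 0.082) and at 48 h in differentiation media (10.47 ± 0.15), nontargeting siRNA at 96 h in differentiation media (10.44 ± 0.16), and ZNF148 siRNA at 48 h in growth media (10.25 ± 0.065). Arrays overlapped between ZNF148 siRNA at 48 h in differentiation media and both of its neighbours in this order, and not between the other neighbours. For ACHE the 4 later ZNF148 siRNA groups came before all 6 others, from 9.32 ± 0.11 to 8.56 ± 0.17, and the nontargeting group at 96 h in differentiation media followed at 6.97 ± 0.094. LRP4 had the same 4 groups at its head, from 12.21 ± 0.13 to 11.60 ± 0.15, followed by that nontargeting group at 10.69 ± 0.093. The same 4 groups also came first for CHRNB1, CHRND, MUSK and RAPSN, though for CHRNB1 the last of them overlapped the next group. CHRNA1 differed, with nontargeting siRNA at 96 h in differentiation media first. For CHRNE 8 of 9 neighbouring groups overlapped.

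The slides could be taken apart in part. At 48 h in both media each of 3 slides held 1 array of each siRNA. Within these slides the log2 difference at 48 h in growth media was between 1.69 and 5.25 for CHRND, 1.95 and 5.65 for CHRNG, 1.44 and 3.98 for CHRNB1, 1.58 and 4.50 for DOK7, 1.45 and 3.30 for LRP4, 1.43 and 3.11 for ACHE and 0.96 and 2.29 for RAPSN, the last being under 2-fold on 1 slide, the lowest values being on the slide with the array that stands apart. In differentiation media at 48 h CHRND was between 3.82 and 4.44 and ACHE between 2.28 and 2.62. At 96 h in growth media 1 slide held both siRNAs, with 3.69 for LRP4, 3.32 for CHRNG and 2.18 for ACHE. At 96 h in differentiation media 2 slides did, with 1.29 and 1.62 for LRP4 and 1.97 and 2.19 for ACHE.

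Other genes of the neuromuscular synapse were taken from a list of 68 genes in 10 roles, and 63 of them could be tested. At 24 h limma called 0 of 63, where 2.46% of all genes were higher and 3.08% lower. The methods' t-test with the fold threshold also called 0. In the limma fit 22 had an unadjusted p under 0.05, of which 1 changed by more than 2-fold. The share of all genes at that unadjusted p is not given, so the 22 cannot be read as an excess. At 48 h in growth media 18 were higher and 7 lower, where 11.7% of all genes were higher and 12.2% lower, and at 96 h 18 and 8, where the shares of all genes were 12.3% and 12.4%. In differentiation media 26 rose and 4 fell at 48 h (15.1% and 17.3% of all genes), then 10 and 6 at 96 h (10.5% and 12.8% of all genes). The median log2 change of the list was 0.32, 0.38, 0.63 and 0.18 in these comparisons, where that of all genes was between -0.06 and -0.03.

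The counts by role are to be read against the same shares of all genes, and with 1 to 11 genes a role they are descriptions, counts such as 1 of 8 or 1 of 11 lying near those shares. Of the organizer signals, 3 of 5 were higher at 48 h and 4 of 5 at 96 h in growth media. ERBB3, a receptor for neuregulins, was higher by 4.50 (log2) at 96 h (SE 0.72, adjusted p = 2.11e-05). Of the genes of activity and denervation 4 and 5 of 7 were higher, NCAM1, the cell adhesion molecule that spreads over denervated fibres, by 4.56 at 96 h (SE 0.69, adjusted p = 1.07e-05). Of the basal lamina genes 5 and 4 of 10 were higher, and COLQ, the collagen tail that anchors acetylcholinesterase, rose by 3.10 at 48 h (SE 0.57, adjusted p = 9.64e-05), with 1 of 3 nontargeting arrays above background.

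The scaffold genes went both ways, 3 of 7 higher and 1 lower at 48 h and 2 and 1 at 96 h. The syntrophin gene SNTB1 rose by 2.13 at 48 h (SE 0.20, adjusted p = 1.94e-08), and SNTB2, its paralog, fell by 2.63 at 96 h (SE 0.16, adjusted p = 3.63e-11). Of 11 clustering partners 1 was higher and 1 lower at 48 h and 1 and 2 at 96 h, with MACF1, a cytoskeletal linker that binds rapsyn, at 1.52 (adjusted p = 5.27e-08) and the kinase PAK1 at -1.69 (adjusted p = 8.03e-12) at 96 h. The transcription genes had 1 and 2 of 5 lower in growth media, and ETV1 fell by 2.12 there at 96 h (SE 0.19, adjusted p = 7.28e-09). In differentiation media 4 of these 5 were higher and 0 lower at 48 h, where 15.1% of all genes were called higher. At 96 h in those media 1 was higher and 0 lower. With nontargeting siRNA at 48 h, 4 of these 5 were lower and 0 higher in differentiation than in growth media. Of all genes, 1512 of 18398 were called lower between those nontargeting groups. Of the assembly genes 1 of 8 was lower at each time in growth media, TMEM35A, a chaperone of nicotinic receptors, by 1.74 at 48 h (its log2 change was -1.74, adjusted p = 6.83e-09).

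Of 8 neuronal and other nicotinic subunits, CHRNA4 was 4.22 ± 0.70 (SD, n = 2) with nontargeting and 7.32 ± 0.25 (n = 3) with ZNF148 siRNA at 96 h in growth media (log2 change 3.10, adjusted p = 2.63e-05), with 1 of the nontargeting arrays above background. CHRNA7 was not well above background on any ZNF148 siRNA array at 48 h in growth media and was at least 1.61-fold lower there (adjusted p = 1.16e-07). BCHE, the other cholinesterase of the synapse, went opposite to ACHE and fell by 1.68 at 96 h in growth media (SE 0.17, adjusted p = 3.29e-08). SCN4A, the sodium channel of adult muscle, was not well above background with nontargeting siRNA at 48 h in growth media and was at least 2.3-fold higher with ZNF148 siRNA (adjusted p = 1.34e-08). At 96 h in differentiation media SCN4A was lower with ZNF148 siRNA, 7.25 ± 0.082 against 8.39 ± 0.12 (SD, n = 3 each, adjusted p = 0.00111).

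**Figure D5:**
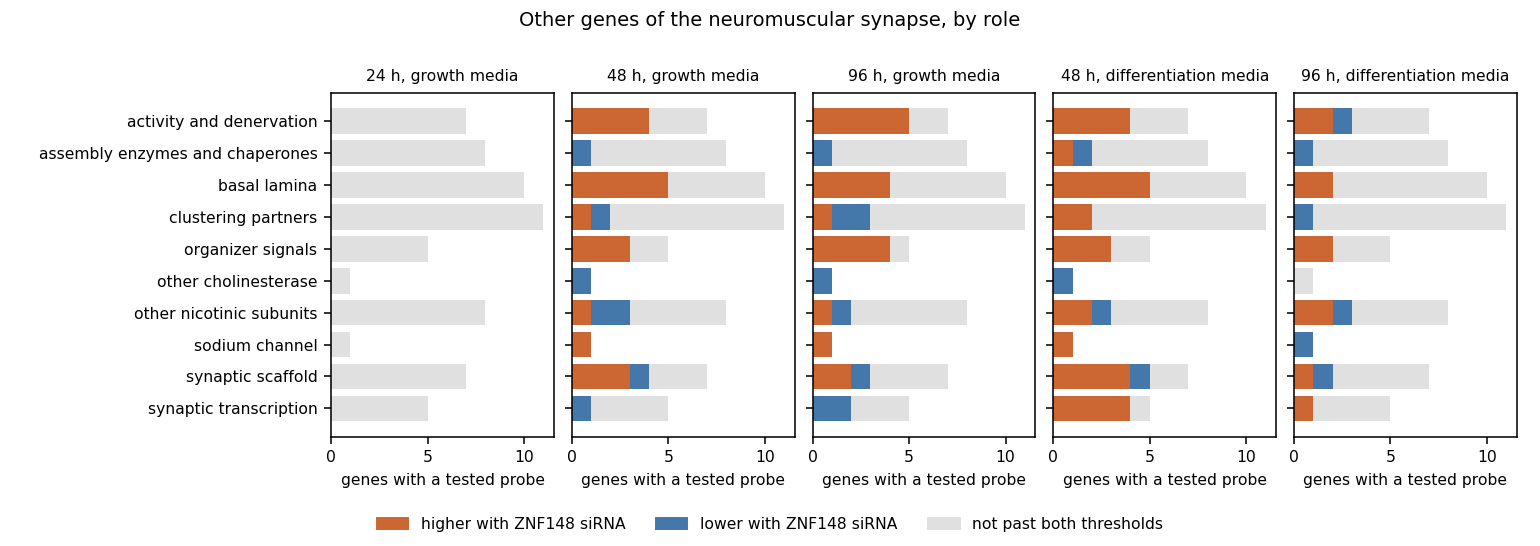
Number of other neuromuscular synapse genes with a tested probe in each role that were higher (orange), lower (blue) or not past both thresholds (grey) with ZNF148 siRNA, in the 5 knockdown comparisons. No gene is coloured at 24 h, and at 96 h in growth media organizer signals, with 4 of 5, and activity and denervation genes, with 5 of 7, have the largest orange shares among roles with more than 1 gene.

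Over the 10 group means, the genes most like CHRNG among 6506 genes whose means spanned more than 2 log2 units were VASH2, RYR1, RARRES2, WSCD1 and ARPP21, with Pearson r from 0.986 to 0.987. RYR1 codes for the calcium release channel of the muscle sarcoplasmic reticulum. Those most like CHRNE were EVPLL, PRAMEF36P, NTN3, CDK5R2 and RIMBP2, with r from 0.973 to 0.989. Among the 10 genes themselves CHRNE was least like the others, with r from 0.27 with LRP4 to 0.64 with CHRNG, and ACHE was most like MUSK (r = 0.97). These are descriptions over 10 points that share normalization and, at 24 h, a slide, and the 24 h means of CHRNG are of a probe not well above background.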

How the data were processed

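Per the file headers, 1-colour Agilent arrays were read by Feature Extraction 10.7.3.1, whose processed signal is a background-subtracted intensity. The authors also deposited normalized log2 values, used here as an alternative. From 62976 spots per array, control and outlier spots were left out and the spots of each probe averaged. Log2 intensities were quantile normalized over 29 arrays, and 38714 probes that 2 or more arrays detected over background were fitted with limma 3.58.1 in R 4.3.3 as 10 group means, with Benjamini-Hochberg adjustment over all probes. Between 41.5% and 56.5% of probes were well above background per array, and the number of arrays limits the precision. The script was tested on simulated data. Headers name hg19 on 14 arrays and no build on 15. Named genes were the 10 genes, ZNF148, for each role of the synapse list the largest rise and fall in growth media at 48 or 96 h, and the 5 genes most like CHRNG and CHRNE. Members, lists and comparisons were chosen with earlier results of these data known. Alternatives covered scaling, background correction, filters, fold threshold, variance, probe choice, slide and replicate blocks, the methods' t-test and leaving out arrays. Figures were drawn with matplotlib 3.10.9.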

Additional observations from a re-analysis of the deposited data

Results flagged for a closer look

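The response to ZNF148 siRNA differed between conditions for several of the 10 genes, by the interaction term of the limma fit. Between media at 48 h, RAPSN differed by -1.35 on the log2 scale (differentiation minus growth media, SE 0.28, adjusted p = 0.000555). Between media at 96 h, the differences were -2.76 for CHRNG, -2.58 for DOK7, -2.25 for CHRNB1, -2.09 for LRP4, -1.41 for CHRNA1 and -1.21 for RAPSN. Between 96 and 24 h in growth media, they were 3.51 for LRP4, 2.92 for DOK7, 2.36 for ACHE, 2.26 for RAPSN, 2.17 for CHRND, 1.69 for CHRNB1 and 1.25 for CHRNA1. The 24 h arrays were on a slide and scan of their own, and hours since transfection differ between the media, so these cannot be told apart from the time and media terms.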

How the results depend on the processing

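Of 39 called results on single genes, none reversed in 805 alternative values and 15 values lost the call. At 24 h CHRNG had a log2 change of 0.47 with normexp correction. The methods' t-test with Benjamini-Hochberg adjustment called 3 of the 10 genes at 48 h in growth media in place of 7, and CHRNB1, CHRND, CHRNG and DOK7 then had adjusted p from 0.0565 to 0.0688. The number of genes called at 24 h was 0 with normexp, 2 with no fold threshold and 0 to 1 leaving out single arrays. Between media at 48 h it was 1 using only the arrays of the comparison, 1 by the methods' t-test and 0 after adjustment (CHRNG lost its call in each of these 3, and RAPSN in the last), 5 without the array that stands apart, and 2 to 5 leaving out single arrays. The interaction at 48 h gave 2 with the stricter filter, with array weights, with no fold threshold or with probes averaged, 4 without the array that stands apart, and 1 to 4 leaving out single arrays. With no fold threshold 5 genes passed at 96 h in differentiation media, 8 over time in differentiation media and 5 between ZNF148 siRNA in growth and nontargeting siRNA in differentiation media. For the synapse list that threshold's removal gave 17 at 24 h (8 higher, 9 lower). At 48 and 96 h in growth media it gave 46 (30 higher, 16 lower) and 46 (29 higher, 17 lower). In differentiation media it gave 49 (37 higher, 12 lower) and 47 (27 higher, 20 lower). The share of all genes without that threshold is not given, so counts without it cannot be set against the shares above. The list had 2 calls at 24 h with 75th percentile scaling, 1 with the stricter filter, trend and robust variance, array weights, slide block, probes averaged or without the array that stands apart, and 0 to 1 leaving out single arrays, and 10 at 96 h in differentiation media with normexp. With normexp, CHRNE minus CHRNG changed by -0.38 at 24 h, -3.33 at 48 h and -2.95 at 96 h in growth media, in place of -1.38, -4.84 and -3.68. The cause was not tested.

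Uncalled values near 0 changed sign. ACHE at 24 h was -0.023 with 75th percentile scaling, -0.019 with normexp and -0.058 to 0.054 leaving out arrays, and CHRNA1 at 48 h in differentiation media -0.050 to 0.22. Between media at 48 h, CHRNB1 was 0.018 with normexp, 0.44 with array weights and 0.78 without the array that stands apart (-0.46 to 0.78 leaving out arrays), and CHRND 0.55 and 1.07 in the last 2 settings (-0.66 to 1.07). LRP4 was -0.0039 with 75th percentile scaling (-0.37 to 0.59), DOK7 -0.038 with probes averaged (-0.32 to 1.13) and ACHE -0.12 to 0.68. Between ZNF148 siRNA in growth and nontargeting siRNA in differentiation media, DOK7 was 0.11 with 75th percentile scaling, 0.080 with the slide block and 0.30 with probes averaged (-0.089 to 0.0035), and CHRNE -0.13 to 0.20. ACHE between media at 96 h passed both thresholds without nontargeting replicate 2 in growth media (1.06).

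Equal replicate numbers did not pair the samples (correlations of same-numbered deviations from -0.14 to 0.12). A replicate block changed no count of the 10 genes and gave 15 synapse list calls at 96 h in differentiation media in place of 16. Dim signals limit CHRNE and CHRND at 24 h, and CHRNG at 24 h with either siRNA and at 48 h in growth media with nontargeting siRNA.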
